A study of Mus musculus with 16 samples.

Results

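Endothelin and apelin are short secreted peptides that act on vessels, heart and connective tissue through G protein-coupled receptors. Of a list of 5 genes of these systems, the ligand genes Edn1 and Apln, the receptor genes Ednra and Ednrb and the processing enzyme gene Ece1, 4 had a probe set with a single platform symbol and were measured, out of 19938 genes. Ednra, the receptor type A of endothelin, had no such probe set and was not analysed here. The list was chosen from measured values: Edn1 and Apln were selected by their lower signal after MG132, so the differences between MG132 and vehicle inside a line are described for the members with no test. Of the values built on them, the difference of the responses between the lines is tested for Ece1 and Ednrb alone.

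Each measured member had 1 probe set, so no choice between probe sets was needed. The 16 arrays came from mouse embryonic fibroblasts, cultured connective tissue cells, with 4 plates in each of 4 groups. The groups were Atf5-knockdown cells with MG132, Atf5-knockdown cells with vehicle, control cells with MG132 and control cells with vehicle. Knockdown cells stably express a short hairpin RNA against Atf5, a stress-responsive transcription factor, and control cells are labelled wild type with a scramble hairpin. MG132, a proteasome inhibitor, was given at 1 µM for 8 h, vehicle was DMSO, and the plates of all groups were collected at 8 h. Whether the plates shared a day or batch is not in the labels. The labels name 1 knockdown and 1 control line and give neither the number of clones nor separate cultures behind the plates. A difference between the lines can therefore not be told apart from a difference between 2 cell populations, and p-values measure the spread between plates, which may be technical.

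All values are log2 probe set intensities, and they are compared between groups within a gene, never between genes. Array medians ran from 7.71 to 7.82, 0 pairs of arrays were identical, and the number of arrays limits the precision. The medians were higher with MG132: 7.78 to 7.82 against 7.74 to 7.76 with vehicle in control cells, without overlap. In knockdown cells they were 7.75 to 7.82 with MG132 and 7.71 to 7.77 with vehicle. MG132 differences and counts are therefore also given with each array centred on its median. Atf5 itself averaged 8.46 ± 0.03 in knockdown and 8.77 ± 0.10 in control cells with MG132 (SD, n = 4 each). With vehicle it averaged 8.35 ± 0.06 in knockdown and 8.57 ± 0.10 in control cells (SD, n = 4 each). The mean line difference of Atf5 was -0.26 ± 0.04 (SE, limma adjusted p = 1.44e-05), only 1.2-fold lower in knockdown cells. In size, 80.8% of all genes had a smaller mean line difference. Inside the groups the arrays spread along a gradient that held 37.1% of the within-group variance. Control vehicle 1 and 4, knockdown vehicle 1 and control MG132 4 stood at its low end, and the members' line differences are given with and without these 4 arrays. The mean log2 level of 10 fibroblast markers lay between 9.69 and 10.14 on all arrays. No detection calls were used, so neither the presence nor the absence of a transcript is stated.

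As background, Edn1 encodes the precursor of endothelin-1, one of the strongest known vasoconstrictor peptides and a mitogen for fibroblasts. The precursor is cut first by furin-type proteases and then by the membrane metalloprotease ECE1, and the peptide binds receptor types A and B. Apln encodes the precursor of apelin, which acts through the receptor APJ (Aplnr) and widens vessels. Both ligand genes are known to be induced by hypoxia, and transcription of Edn1 is known to depend on AP-1 and GATA factors in endothelial cells.

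The start-site regions of both ligand genes are shown because these are the members whose RNA level differed most between treatments. Each runs from 250 bases before to 50 bases after the annotated start (RefSeq, GRCm38.p6), read in the direction of transcription, and capitals mark matches to the motifs searched. Edn1 lies at chr13:42301226-42301525 on the plus strand and Apln at chrX:48034804-48035103 on the minus strand.
Edn1: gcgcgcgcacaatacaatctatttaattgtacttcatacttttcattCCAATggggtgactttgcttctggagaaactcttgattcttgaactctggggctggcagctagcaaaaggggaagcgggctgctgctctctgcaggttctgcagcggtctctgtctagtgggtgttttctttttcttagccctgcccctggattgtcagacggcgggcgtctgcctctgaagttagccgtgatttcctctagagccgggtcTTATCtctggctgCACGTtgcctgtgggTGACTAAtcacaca
Apln: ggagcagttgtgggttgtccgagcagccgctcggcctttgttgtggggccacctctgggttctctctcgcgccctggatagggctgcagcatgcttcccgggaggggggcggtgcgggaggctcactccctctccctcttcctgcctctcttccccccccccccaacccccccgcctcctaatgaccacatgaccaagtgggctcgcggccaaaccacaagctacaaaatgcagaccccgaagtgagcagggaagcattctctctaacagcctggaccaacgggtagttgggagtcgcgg
Searched on both strands, with no match overlapping another in these windows, were 6 motifs. In the Edn1 window the AP-1 element TGACTAA began at base 37 from the annotated start. Of 32851 start-site windows of the same length, 2.35% hold that motif. All positions count from the annotated start, and whether transcription begins there in these cells was not tested. The hypoxia core ACGTG was found on the opposite strand at base 22 (19.6% of windows), the GATA motif GATAA on the opposite strand at base 9 (25.4%), and a CCAAT box at base -203 (37.4%). The AP-1 consensus TGACTCA (5.2% of windows) and the TATA box TATAAA (13.6%) had no match in this window, and sequence outside it was not searched. The Apln window held 0 matches to the 6 motifs. A match describes letters only, and the motifs were chosen with the known control of Edn1 in mind.

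Edn1 was the member with the widest range. It read 8.86, 8.90, 8.92 and 8.78 on the knockdown MG132 arrays and 9.13, 9.17, 9.14 and 9.16 on the knockdown vehicle arrays. The control MG132 arrays read 8.06, 8.19, 8.11 and 8.03 and the control vehicle arrays 10.22, 10.21, 10.34 and 10.24. No 2 of the 4 groups overlapped, with control vehicle highest, then knockdown vehicle, knockdown MG132 and control MG132. In control cells the MG132 level was 22.5% of the vehicle level (log2 difference -2.155 ± 0.042, SE), the lowest value among all 19938 genes in that comparison. In knockdown cells it was 82.1% of the vehicle level (-0.285 ± 0.042).

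The 2 lines thus stood in opposite order under the 2 treatments. With MG132 Edn1 was 1.7-fold higher in knockdown than in control cells (log2 difference 0.767 ± 0.042), and with vehicle it was at 46.6% of the control level (-1.102 ± 0.042). The MG132 response of knockdown cells exceeded that of control cells by 1.87 ± 0.06 on the log2 scale, the second highest of all genes. These values are given without a test, since Edn1 was chosen by its response inside the lines and the comparisons share the arrays. The mean over both treatments, which is orthogonal to the MG132 response, was -0.17 ± 0.03 for knockdown minus control (limma adjusted p = 0.000139). With the line labels permuted inside each treatment the exact two-sided p was 0.582 for the same mean, in which differences of opposite sign are averaged. The swaps carry these large differences into the null spread. So small a mean could not reach a low p there, and nothing is concluded from that p. Without the 4 arrays at the low end of the gradient Edn1 differed between the lines by 0.745 with MG132, -1.118 with vehicle and -0.187 in the mean, and its MG132 differences were -0.292 in knockdown and -2.155 in control cells.

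**Figure D1:**
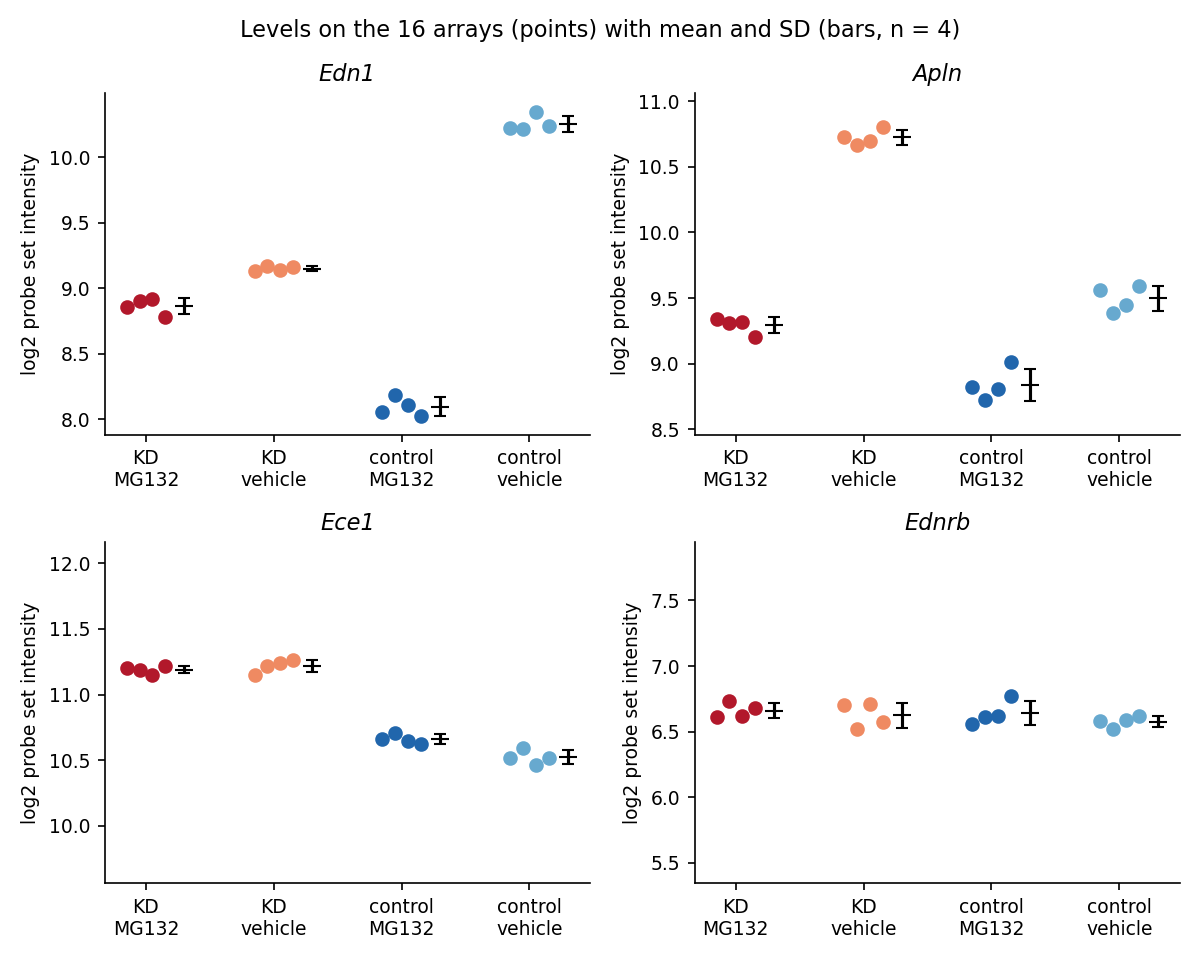
Log2 probe set intensity (vertical axes, each panel on its own range) of the 4 measured genes on the 16 arrays, by group; points are single arrays and bars the mean ± SD (n = 4; KD, Atf5 knockdown). Edn1 runs from 8.03 in control MG132 to 10.34 in control vehicle and Apln from 8.72 in control MG132 to 10.8 in knockdown vehicle, while the groups of Ednrb overlap.

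Apln was also lower with MG132 in both lines, but with the larger difference in the other line. The knockdown MG132 arrays read 9.34, 9.31, 9.32 and 9.20, against 10.73, 10.67, 10.70 and 10.80 with vehicle. In control cells the values were 8.82, 8.72, 8.81 and 9.01 with MG132 and 9.56, 9.39, 9.45 and 9.59 with vehicle. The groups did not overlap, and from high to low they were knockdown vehicle, control vehicle, knockdown MG132 and control MG132. Between the second and the third of these the gap was small: the lowest control vehicle array read 9.39 and the highest knockdown MG132 array 9.34. MG132 left 37% of the vehicle level in knockdown cells (log2 difference -1.432 ± 0.059) and 63.4% in control cells (-0.658 ± 0.059), so the difference of the responses was -0.775 ± 0.083, again given without a test.

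In contrast to Edn1, Apln was higher in knockdown cells under both treatments, 1.37-fold with MG132 (0.453 ± 0.059) and 2.34-fold with vehicle (1.227 ± 0.059). Averaged over the treatments it was 1.79-fold higher (0.84 ± 0.04, limma adjusted p = 1.74e-11). The exact two-sided permutation p of 0.000408 is the smallest that this design can give. Without the 4 arrays at the low end of the gradient the mean difference was 0.906, with 0.509 under MG132 and 1.303 under vehicle.

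**Figure D2:**
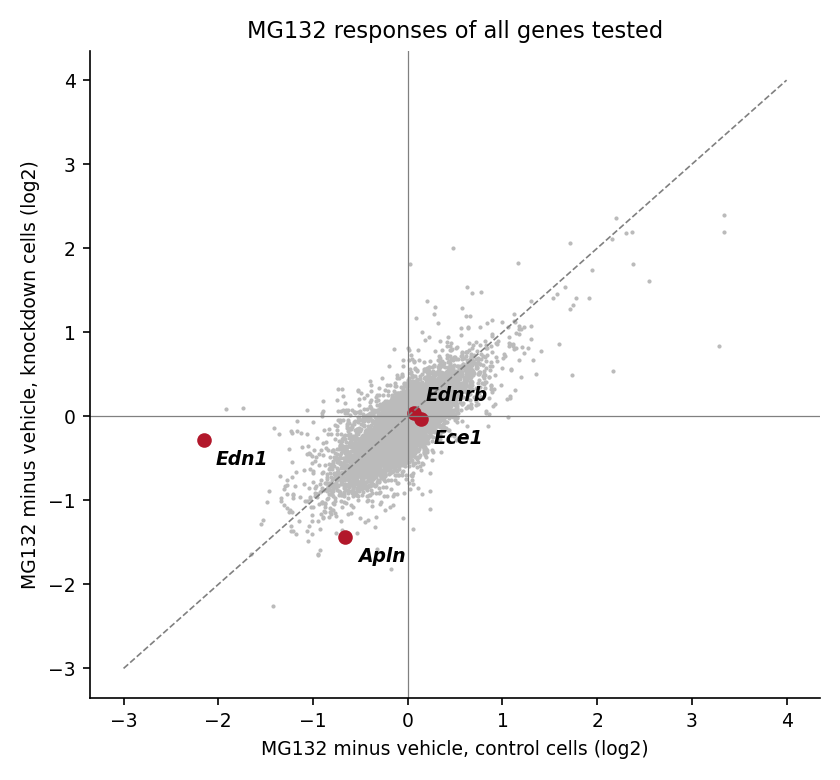
MG132 minus vehicle (log2 difference) in control cells (horizontal axis) and in knockdown cells (vertical axis) for all 19938 genes in grey, with the 4 members in red and the line of equal response dashed. Edn1 lies at -2.155 and -0.285 and Apln at -0.658 and -1.432, on opposite sides of the dashed line.

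Ece1, the metalloprotease that releases active endothelin from its inactive precursor, differed between the lines. It read 11.20, 11.19, 11.15 and 11.22 in knockdown cells with MG132 and 11.15, 11.22, 11.24 and 11.26 with vehicle. In control cells it read 10.66, 10.71, 10.65 and 10.62 with MG132 and 10.52, 10.59, 10.46 and 10.52 with vehicle. All 8 knockdown arrays lay above all 8 control arrays, the 2 knockdown groups overlapped each other, and the control MG132 arrays lay just above the control vehicle arrays. Ece1 was 1.44-fold higher in knockdown cells with MG132 (0.53 ± 0.04, limma adjusted p = 2.45e-09, exact permutation p = 0.0286) and 1.62-fold higher with vehicle (0.70 ± 0.04, limma adjusted p = 5.55e-11, exact permutation p = 0.0286). With 4 arrays against 4 no smaller exact p is possible.

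Over both treatments the difference of Ece1 was 0.61 ± 0.03 (limma adjusted p = 1.57e-12, exact permutation p = 0.000408). Its MG132 differences, described only, were -0.03 ± 0.04 in knockdown and 0.14 ± 0.04 in control cells. The difference of these responses was -0.17 ± 0.05 and passed the threshold of 0.05 narrowly (limma adjusted p = 0.0382). Leaving out single arrays ended that call for 12 of the 16 (limma adjusted p 0.0192 to 0.0843 over all 16), and the arrays without which it held were knockdown MG132 4, knockdown vehicle 1, control MG132 4 and control vehicle 2. Centring each array on its median (-0.173, limma adjusted p = 0.0773) and testing every probe set (-0.165, limma adjusted p = 0.0546) ended it too. So did a block for the replicate number (-0.165, limma adjusted p = 0.0523). Without the 4 arrays at the low end of the gradient the value was -0.198 (limma adjusted p = 0.0401), and the line differences were 0.517 with MG132 and 0.715 with vehicle.

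Ednrb, the type B endothelin receptor gene, whose product also clears endothelin, passed in none of the comparisons tested. Its arrays read 6.61, 6.73, 6.62 and 6.68 in knockdown cells with MG132 and 6.70, 6.52, 6.71 and 6.57 with vehicle. In control cells they read 6.56, 6.61, 6.62 and 6.77 with MG132 and 6.58, 6.52, 6.59 and 6.62 with vehicle. All 4 groups overlapped. The line difference over both treatments was 0.03 with a 95% interval of -0.043 to 0.111 (limma adjusted p = 0.523, exact permutation p = 0.37). Its responses differed by -0.03 between the lines, with an interval of -0.182 to 0.127 (limma adjusted p = 0.879). Without the 4 arrays at the low end of the gradient the mean line difference was 0.054 (limma adjusted p = 0.286). Its probe set alone of the 4 fell below the 25th percentile of all genes' means, where changes on arrays can be compressed, so the interval bounds the signal and not the transcript.

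**Figure D3:**
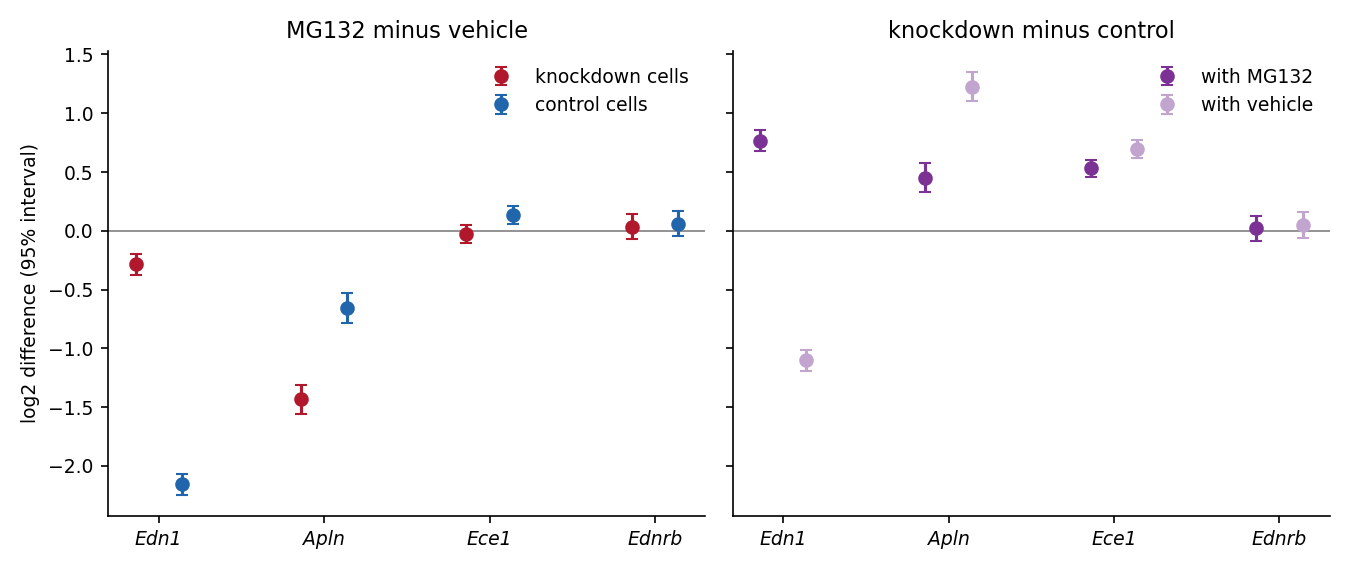
Log2 differences with 95% intervals from limma for the 4 members: MG132 minus vehicle in each line (left) and knockdown minus control under each treatment (right). Edn1 is the member whose line difference has opposite signs, 0.767 with MG132 and -1.102 with vehicle.

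Against all genes, differences of this kind were common, and the shares of all genes that met each criterion stand beside the members' counts. With MG132 in knockdown cells 0 members were higher without overlap (15.1% of all genes) and 2 lower (23.4%). In control cells 1 was higher (15%) and 2 were lower (17.9%). Since the rule chose Edn1 and Apln in these comparisons, nothing is read from those counts. Between the lines 3 were higher in knockdown cells with MG132 (16.6% of all genes) and 0 lower (18.1%), and with vehicle 2 were higher (21.4%) and 1 lower (17.3%). These counts include Edn1 and Apln, chosen from the same arrays, so nothing is read from them either.

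By limma over the mean of both treatments, 2 of the 4 members were higher and 1 lower in knockdown cells, beside 22.7% and 22.5% of all genes (45.3% in either direction). The lower one is Edn1, whose mean joins a positive difference with MG132 and a negative one with vehicle. Its exact permutation p was 0.582, from a permutation that cannot judge so small a mean. Of the 2 members tested under each treatment, 1 was higher and 0 lower with MG132, beside 17.7% and 20.3% of all genes (38.1%). With vehicle 1 was higher and 0 lower, beside 21.5% and 17.9% (39.4%). For the difference of the responses 0 of 2 passed as higher and 1 as lower, beside 4.45% and 10.1% (14.6%).

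Genes with the most similar pattern were sought by the root mean square difference of the log2 values over the 16 arrays, each gene centred on its own mean. For Apln these were Gas1 (0.139), Amigo2 (0.151), Fat4 (0.164) and Cd300lb (0.17), against a root mean square change of Apln itself of 0.702. All 4 were lower with MG132, by more in knockdown cells (-1.16 to -1.63) than in control cells (-0.75 to -0.95). Edn1 had no gene that close: Arsj (0.363), Mfap3l (0.367), Nuak2 (0.386) and Plau (0.389) came nearest, against a change of Edn1 itself of 0.775. All 4 were lower with MG132 in knockdown cells too, by -0.81 to -1.02, where Edn1 differed by -0.285. Ece1 was matched most closely by Arvcf (0.054) and Foxd1 (0.056). The closest to Ednrb, Parm1 (0.043) and Bank1 (0.043), are genes with as little change. Edn1 and Apln stood 0.842 apart on this measure.

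**Figure D4:**
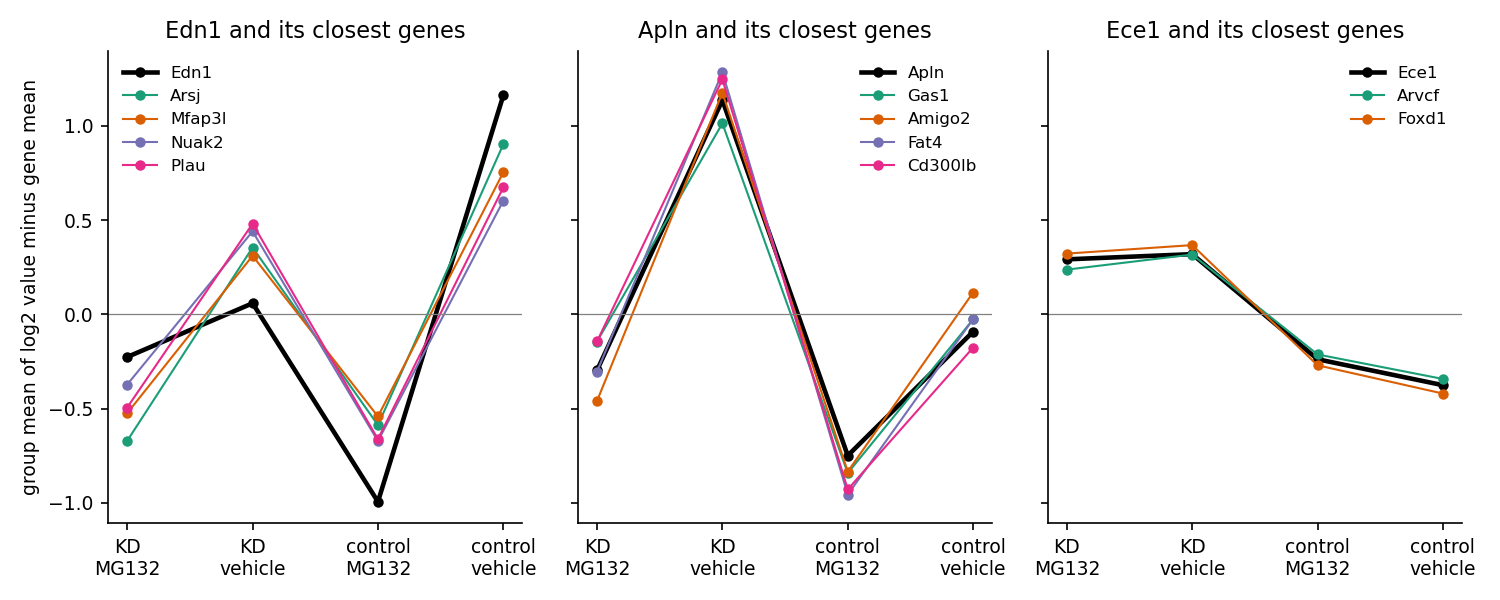
Group means of the log2 value minus the gene's mean over 16 arrays (vertical axis) for Edn1, Apln and Ece1 (black) and the genes closest to each by root mean square difference (colours); KD, Atf5 knockdown. Over the 16 arrays the root mean square difference of the named genes was 0.139 to 0.17 from Apln and 0.363 to 0.389 from Edn1.

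The rest of both pathways was read from 6 lists, chosen with earlier results of these data known, of which 76 of 81 genes were measured. With MG132 in knockdown cells 18 of them rose and 20 fell (limma, adjusted over all genes), beside 16.4% and 24.3% of all genes (40.7% in either direction). In control cells 12 rose and 22 fell, beside 16.8% and 19% of all genes (35.8%). With each array centred on its median, 10 of the list genes rose and 22 fell with MG132 in knockdown cells, and of all genes 1833 rose and 5795 fell there, against 3276 and 4848 without that centring. In control cells the centred counts over all genes were 2150 and 4624, against 3341 and 3796. Without the 4 arrays at the low end of the gradient 5498 of all genes rose in knockdown cells, and of the list genes 22 rose and 20 fell there and 14 rose and 22 fell in control cells. Over both treatments 19 were higher and 19 lower in knockdown cells, beside 22.7% and 22.5%. The median change of the 76 genes was 0.005, -0.016 and -0.014 in these comparisons, against 0.033, 0.028 and -0.007 over all genes.

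Of the other ligands and the apelin receptor, 4 genes in all, few calls were made. Edn2 and Edn3, the other endothelin genes, differed with MG132 by 0.10 ± 0.05 and 0.13 ± 0.07 in knockdown cells and by -0.10 ± 0.05 and 0.01 ± 0.07 in control cells, and none of these passed (limma adjusted p 0.145 to 0.917). Edn2 was lower in knockdown cells with vehicle (-0.20 ± 0.05, limma adjusted p = 0.00405), a call lost without the 4 arrays at the low end of the gradient (-0.135). Aplnr read 7.69, 7.60, 7.58 and 7.65 in knockdown cells with MG132, 7.73, 7.62, 7.54 and 7.63 with vehicle, 7.79, 7.71, 7.54 and 7.77 in control cells with MG132 and 7.65, 7.60, 7.49 and 7.60 with vehicle. These groups overlapped, and no Aplnr difference passed in the MG132 and line comparisons. Apela, a second ligand of the apelin receptor, rose by 0.23 ± 0.05 in knockdown cells (limma adjusted p = 0.000811).

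Among the peptidases that make or degrade both peptides, Furin, which makes the first cut in the endothelin precursor, fell with MG132. It read 11.02, 10.94, 11.01 and 10.95 against 11.16, 11.17, 11.22 and 11.20 with vehicle in knockdown cells, and 10.78, 10.84, 10.77 and 10.85 against 11.19, 11.08, 11.06 and 11.13 in control cells. The groups did not overlap in either line (-0.21 ± 0.04 and -0.30 ± 0.04, limma adjusted p = 0.000149 and 2.78e-06). Mme, which encodes neprilysin, a protease that degrades endothelin and other peptides, fell in both lines as well (-0.34 ± 0.08 and -0.24 ± 0.08, limma adjusted p = 0.00156 and 0.0212). The control-cell call of Mme was lost without control MG132 4 (-0.181, limma adjusted p = 0.0784) and without control vehicle 2 (-0.213, limma adjusted p = 0.0658). Pcsk7, a proprotein convertase, fell in knockdown cells (-0.34 ± 0.05, limma adjusted p = 1.2e-05). Ece2 fell in control cells (-0.19, limma adjusted p = 0.00498), a call lost when its probe sets were averaged (-0.089, limma adjusted p = 0.122). Of 9 measured peptidases, 3 fell and 0 rose in each line. That is 33.3%, beside 40.7% of all genes called in knockdown and 35.8% in control cells.

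Of 18 genes for G proteins and their effectors, 4 rose and 6 fell with MG132 in knockdown cells (55.6%, beside 40.7% of all genes). In control cells 3 rose and 4 fell (38.9%, beside 35.8%). All of these differed by less than 1 on the log2 scale. Gna13, a G protein alpha subunit, rose by 0.33 ± 0.03 and 0.32 ± 0.03 in knockdown and control cells. Plcb3, the phospholipase C that receptors of this class use to release calcium, fell by 0.40 ± 0.03 and 0.30 ± 0.03. Between the lines, Gnai1, an inhibitory G protein of the type that the apelin receptor couples to, differed most. It read 7.10, 6.99, 6.52 and 6.67 in knockdown cells with MG132 and 9.73, 9.80, 9.71 and 9.62 in control cells with MG132. With vehicle it read 7.10, 6.70, 6.94 and 6.84 in knockdown and 9.62, 9.68, 9.72 and 9.65 in control cells. Knockdown cells were thus 7.13-fold lower over both treatments (-2.83 ± 0.07, limma adjusted p = 2.72e-15), and Plcb1 was 1.75-fold higher (0.81 ± 0.03, limma adjusted p = 5.11e-13). The other inhibitory alpha subunits on the list did not share the large Gnai1 difference. Group means ran from 12.96 to 13.13 for Gnai2 and from 12.03 to 12.08 for Gnai3.

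Receptor desensitisation genes differed between the lines over both treatments in 6 of 9 (4 higher, 2 lower), 66.7% beside 45.3% of all genes. Arrb1, the beta-arrestin that uncouples and internalises receptors, was 3.36-fold higher in knockdown cells (1.75 ± 0.04, limma adjusted p = 1.81e-16), with 10.68, 10.60, 10.64 and 10.56 with MG132 against 9.04, 9.19, 8.96 and 8.99 in control cells, and 10.64, 10.59, 10.76 and 10.78 with vehicle against 8.78, 8.73, 8.81 and 8.77. Rgs2, which switches off the G protein of the endothelin receptors, was 2.44-fold lower (-1.29 ± 0.06, limma adjusted p = 5.36e-12). Rgs2 rose with MG132 by 0.24 ± 0.08 in knockdown and 1.08 ± 0.08 in control cells (limma adjusted p = 0.0295 and 1.66e-08). Rgs16, another such switch, rose in knockdown cells (0.26 ± 0.05) and fell in control cells (-0.26 ± 0.05).

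**Figure D5:**
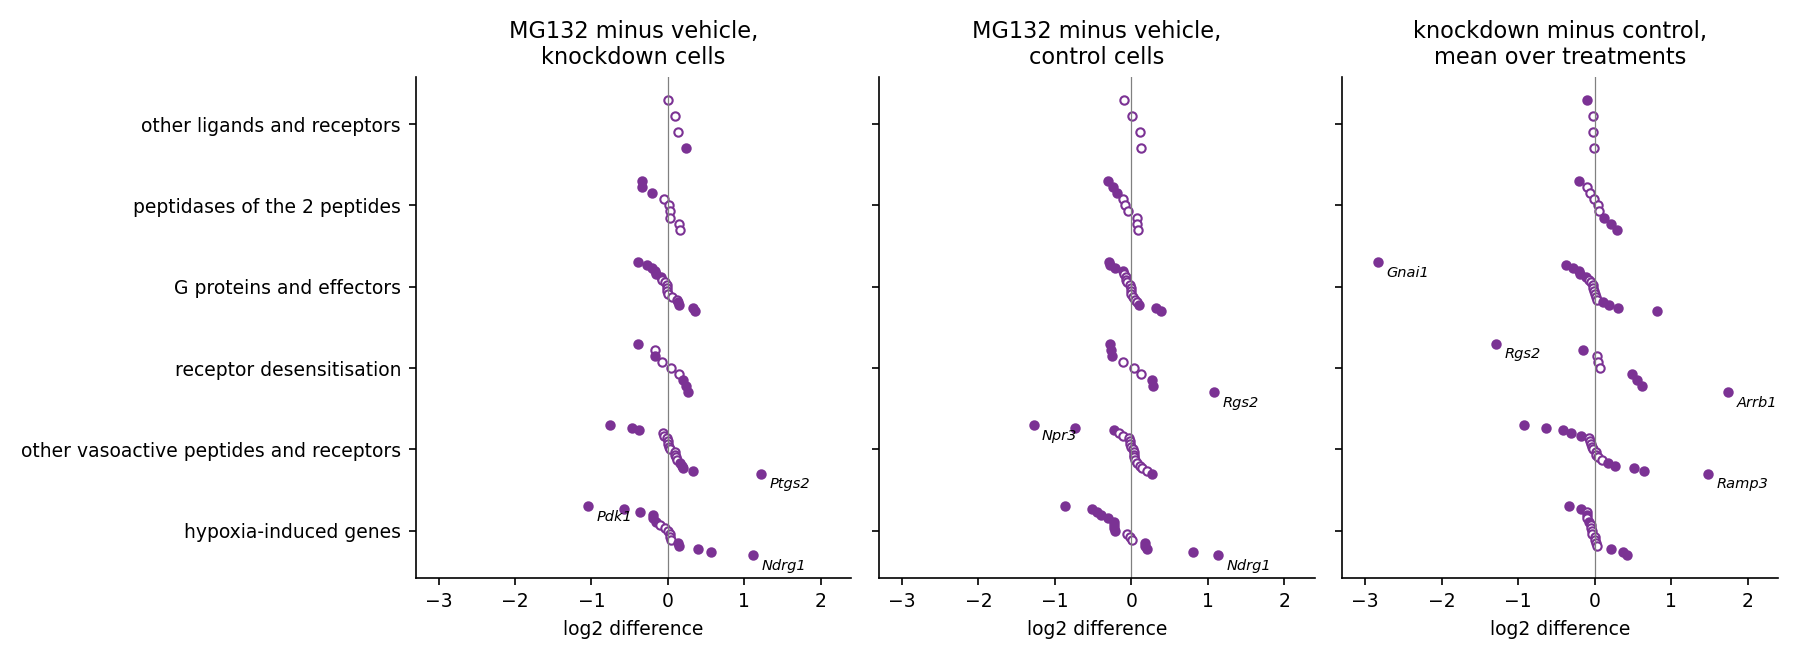
Log2 differences of the 76 measured genes of 6 pathway lists, 1 point per gene, ordered by value inside a list. Filled points passed limma at an adjusted p under 0.05, and genes that differed by 1 or more are named, among them Gnai1 at -2.83 and Arrb1 at 1.75 between the lines.

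Other vasoactive genes gave a comparison for the ligands. Adm, the precursor of the vasodilator adrenomedullin, read 7.97, 8.10, 8.08 and 8.05 with MG132 and 7.67, 7.57, 7.86 and 7.79 with vehicle in knockdown cells. In control cells it read 8.12, 8.15, 8.23 and 8.09 with MG132 and 8.92, 8.92, 8.79 and 8.91 with vehicle. The treatments did not overlap in either line, and the direction was opposite: Adm rose by 0.33 ± 0.06 in knockdown and fell by 0.74 ± 0.06 in control cells (limma adjusted p = 0.000131 and 1.57e-08). Npr3, the clearance receptor of natriuretic peptides, fell in both lines (-0.76 ± 0.05 in knockdown and -1.28 ± 0.05 in control cells), and Ptgs2, the inducible cyclooxygenase, rose in both (1.22 ± 0.04 and 0.28 ± 0.04). Ramp3, a partner of the adrenomedullin receptor, was 2.79-fold higher in knockdown cells (1.48 ± 0.06) and Nppb, the precursor of the B-type natriuretic peptide, 1.89-fold lower (-0.92 ± 0.05). Of the 19 genes of that list, 5 rose and 3 fell with MG132 in knockdown cells (42.1%, beside 40.7% of all genes). In control cells 1 rose and 3 fell (21.1%, beside 35.8%).

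Hypoxia-induced genes, a class to which both ligand genes are known to belong, were called in both directions with MG132. In knockdown cells 5 of 17 rose and 6 fell (median -0.005), which is 64.7% called, beside 40.7% of all genes. In control cells 5 rose and 9 fell (median -0.215, against 0.028 over all genes), 82.4% beside 35.8%. Ndrg1 rose in both lines (1.12 ± 0.04 in knockdown and 1.14 ± 0.04 in control cells), as did Vegfa, the vascular growth factor gene (0.56 ± 0.03 and 0.18 ± 0.03). Egln1, an oxygen-sensing hydroxylase, fell in both (-0.36 and -0.45). Hk2, the glycolytic enzyme hexokinase 2, rose by 0.13 ± 0.04 in knockdown cells and fell by 0.52 ± 0.04 in control cells (limma adjusted p = 0.00995 and 9.03e-09).

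Edn1 and Apln are best known from endothelium, whose markers were therefore read. The share of all genes called with MG132 was 16.4% higher and 24.3% lower in knockdown cells, and 16.8% and 19% in control cells. Of 10 endothelial markers, 2 rose and 0 fell with MG132 in knockdown cells and 1 rose and 0 fell in control cells. Their mean log2 level ran from 7.06 to 7.10 in knockdown MG132, 6.92 to 7.11 in knockdown vehicle, 7.10 to 7.22 in control MG132 and 7.02 to 7.12 in control vehicle arrays. Their summed level on the log2 scale, the measure used for the lists below, ran from 10.55 to 10.61, 10.43 to 10.63, 10.59 to 10.71 and 10.54 to 10.64 in that order. Sums and means are not comparable with each other, nor are sums between lists. Fibroblast markers fell with MG132 in 5 of 10 and rose in 2 in knockdown cells, and fell in 6 and rose in 1 in control cells. Their summed level on the log2 scale was 15.03 to 15.04 with MG132 and 15.23 to 15.32 with vehicle in knockdown cells, and 14.98 to 14.99 and 15.31 to 15.32 in control cells. Smooth muscle and pericyte markers fell in 3 and rose in 1 of 9 in knockdown cells and fell in 4 and rose in 1 in control cells (summed level 13.59 to 13.64 against 13.72 to 13.76, and 13.90 to 13.92 against 14.08 to 14.21). Of 7 macrophage markers 2 rose with MG132 in each line (summed level 10.20 to 10.31 against 9.99 to 10.09 in knockdown, 9.84 to 9.91 against 9.73 to 9.77 in control cells). Of 6 epithelial markers 1 rose and 1 fell in each line (summed level 10.49 to 10.56 against 10.53 to 10.56, and 11.44 to 11.48 against 11.75 to 11.89). Between the lines, over both treatments, 22.7% of all genes were higher and 22.5% lower in knockdown cells (45.3% in either direction). Beside these shares, 0 of the endothelial markers were higher and 4 lower in knockdown cells. Of the fibroblast markers 5 were higher and 2 lower. Of the smooth muscle and pericyte markers 3 were higher and 4 lower, among them Tagln, an actin-binding protein gene, at -1.98 ± 0.04. Of the macrophage markers 3 were higher and 0 lower, and of the epithelial markers 0 were higher and 3 lower, among them the keratin gene Krt19 at -2.26 ± 0.04. Tagln and Krt19 were singled out after their values were seen. The part of these markers in the results was not tested, and in bulk RNA fewer cells of a type and less RNA per cell cannot be told apart.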

How the data were processed

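Total RNA of 16 plates was hybridised to Affymetrix whole-transcript arrays. The authors deposited log2 probe set intensities, and per the submitters' processing notes RMA and Partek were used. Versions, settings and array build: not given in the sources used here. RMA equalises array distributions, so a shift of most genes one way would be hidden, though the deposited array medians still ran from 7.71 to 7.82. Of 35556 probe sets, 21789 carried 1 symbol in the platform table, 1621 several and 12146 were unlisted, and 21698 of the first kind matched RefSeq. The probe set with the highest mean stood for each of 19938 genes.

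Groups and replicate numbers came from the sample titles. A mean per group was estimated in limma 3.58.1 (R 4.3.3, lmFit, then eBayes, with 12 residual and 4.12 prior degrees of freedom) without a filter on low values. All 4 measured members pass a filter at a mean of 6, and 3 pass one at the 25th percentile. Tests were two-sided, and p-values were adjusted by Benjamini and Hochberg's method across all genes (threshold 0.05). The code was tested on simulated data. Single values were tested by exact permutation. The members and lists were chosen with earlier results of these data known. List genes are named if among the 3 smallest p-values of their list in a comparison. Pattern likeness skipped gene models, clones and small RNAs. Gnas, Itpr1, Rock2, Grk2 and 1 other listed gene were not analysed here. Alternatives were normalization, filters, probe set rules, priors, array weights, a replicate block and omitted arrays. Figures were drawn in Python 3.11.15 (matplotlib 3.10.9).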

Additional observations from a re-analysis of the deposited data

Results flagged for a closer look

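Among the members tested, the MG132 response of Ece1 differed between the lines, by -0.165 on the log2 scale (knockdown minus control), a call that was lost under several alternatives, the replicate block and 12 of 16 single-array omissions among them. Of the named pathway genes, the response was more positive in knockdown than in control cells for Adm (1.065), Ptgs2 (0.943), Hk2 (0.645), Npr3 (0.518), Rgs16 (0.515), Slc2a1 (0.435) and Vegfa (0.385). It was more negative for Rgs2 (-0.842), Npr2 (-0.453), Arrb1 (-0.345) and Pcsk7 (-0.233). With all arrays and no block, these and Ece1 passed limma's test of the difference itself, as did 14.6% of all genes.

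Single arrays set apart from the other 3 of their group, relative to the range of that group, were found for 11 of the named pathway genes and for none of the members. Low arrays were Apela on control MG132 1 (4.93), Mme on control MG132 4 (7.18), Itpr2 on control vehicle 2 (10.03), Slc2a1 on control vehicle 2 (12.56), Adm on control vehicle 3 (8.79), Egln1 on control vehicle 3 (11.51), Hk2 on knockdown MG132 1 (10.21) and Grk5 on knockdown MG132 1 (9.07). High arrays were Plcb3 on control MG132 2 (11.30), Ramp3 on control MG132 2 (8.18) and Npr3 on knockdown vehicle 4 (9.94). Chance flags about 1 in 20 groups.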

How the results depend on the processing

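Over 28 alternatives, 16 of which left out 1 array each, every difference of the 4 members that was called kept its direction, and the calls of the mean line difference of Edn1, Apln and Ece1 were kept in all. The exception among calls was the difference of the MG132 responses of Ece1, whose call was lost with each array centred on its median (-0.173, adjusted p = 0.0773), with every probe set tested (-0.165, adjusted p = 0.0546) and with the replicate block (-0.165, adjusted p = 0.0523), and which ran from -0.188 to -0.144 without single arrays. The block changed no other member call. Between groups, the correlation of same-numbered arrays ran from -0.45 to 0.428 (median 0.0935). For arrays with other numbers it ran from -0.504 to 0.605 (median -0.0545). Of 16 arrays, 7 correlated best with their own number. These values do not settle whether the numbers pair the arrays, so the block is given as an alternative to the main fit. Repeating the quantile normalization moved the MG132 difference of Edn1 in knockdown cells to -0.226, that of Ednrb to -0.041 and the difference of the responses of Edn1 to 1.963. Median centring moved the MG132 difference of Edn1 in knockdown cells to -0.345 and those of Ece1 to -0.088 in knockdown and 0.085 in control cells. Of all genes called higher with MG132, centring left 1833 in knockdown cells (5795 lower), against 3276 (4848 lower), and 2150 in control cells (4624 lower), against 3341 (3796 lower), and 10 of the pathway genes in knockdown cells, against 18. Testing every probe set gave 4938 and 5204 higher, and 6782 lower for the mean line difference, against 4495. In knockdown cells 5425 were higher with array weights and 5498 without the 4 arrays at the low end of the gradient. Averaging its 2 probe sets turned the line difference of Ece2 to -0.079 with vehicle and -0.026 in the mean, against 0.145 and 0.211. The mean line difference of Edn2 (-0.106) lost its call under 7 alternatives. Over all named pathway genes 2121 values kept direction and call, 15 lost the call and 2 turned. The causes were not tested.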
